A study of Rattus norvegicus with 28 samples.

Results

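The nuclear receptor genes Nr1d1, Nr1d2, Rora and Rorb were followed across 28 RNA sequencing libraries of rat striatum. They are 4 of the 39538 genes in the deposited table, and their rows were found by gene name. They were chosen by their levels and group differences in these same libraries, in particular the limma results of Nr1d1 and Nr1d2 between the 4 groups. Their levels, log2 changes and calls are therefore given as a description without a p-value. All 4 passed the minimum of 0.5 RPM in at least 6 libraries, as did 18222 genes in all. RPM are reads per 1000000 reads assigned to genes.

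Nr1d1 and Nr1d2 encode REV-ERBα and REV-ERBβ, receptors that bind heme and repress transcription together with the NCoR and HDAC3 corepressor. Rora and Rorb encode RORα and RORβ, which activate transcription at the same DNA element, the ROR response element (RORE). In the circadian clock, BMAL1 (gene Arntl) and CLOCK or NPAS2 activate Nr1d1 and Nr1d2 through E-boxes, and the REV-ERB proteins in turn repress Arntl. RORα is known for its part in cerebellar Purkinje cells, and Rorb for its expression in cortical and retinal neurons.

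The libraries came from male rats in 4 groups, and the labels place all of them at 12 weeks post injury. TG crush rats (n = 6) carried ΔETorA and had received a crush of the right sciatic nerve lasting 30 seconds. TG naive rats (n = 8) carried ΔETorA without the crush, wt crush rats (n = 6) were wild type with the crush, and wt naive rats (n = 8) were wild type without it. ΔETorA is the torsinA variant behind DYT-TOR1A dystonia, an inherited movement disorder, and no label names its promoter. The rats lived in a light and dark cycle of 12 hours, and no label gives the hour of sampling, with which the levels of these genes are known to change.

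The libraries held 29151455 to 38407359 assigned reads, so that a count of 0 allows at most 0.103 RPM for counting error only. The human TOR1A transcript followed the genotype labels, at 102 to 139 RPM in TG crush and 129 to 144 RPM in TG naive libraries, against at most 0.447 RPM in wt crush and 0.972 RPM in wt naive libraries. All 13 markers of spiny projection neurons, the main neurons of the striatum, were detected, and their summed level was 5458 to 10730 RPM in TG crush, 5916 to 9762 RPM in TG naive, 9428 to 10730 RPM in wt crush and 5398 to 10770 RPM in wt naive libraries. Slc17a7, which marks cortical excitatory neurons, was over 20 RPM in 5 libraries, namely TG crush 220, TG naive 190 and wt naive 197, 199 and 202. Of the marker lists for spiny, cortical and thalamic neurons, astrocytes, oligodendrocytes, microglia, choroid plexus, blood and pituitary, none had a gene that passed limma's test in any contrast. Of 4 endothelial markers, Cd93 and Pecam1 passed in the contrast of TG crush with TG naive rats, with log2 changes of -1.09 (adjusted p = 1.36e-07) and -0.37 (adjusted p = 0.0123). In bulk tissue, fewer cells of a type and less RNA per cell cannot be told apart.

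Per Rnor_6.0, the build of the deposited table, Nr1d1 lies on chromosome 10 at 86683875 to 86690815 on the minus strand and gave 1781 to 4650 reads per library. Its end overlaps that of Thra, the thyroid hormone receptor α gene on the plus strand, over 1061 bases. No label says whether the counting used strand, and reads in this stretch are therefore uncertain. Thra itself was at 514 to 561 RPM in TG crush, 479 to 646 RPM in TG naive, 488 to 565 RPM in wt crush and 515 to 618 RPM in wt naive libraries, and its log2 change was between -0.10 and 0.03 in the 4 contrasts of 2 groups. Nr1d2 lies on chromosome 15 at 8730871 to 8757165 on the plus strand and gave 1927 to 4489 reads. Rora lies on chromosome 8 at 75515886 to 75616477 on the plus strand and gave 432 to 726 reads. Rorb lies on chromosome 1 at 234252757 to 234442597 on the plus strand and gave 1455 to 2111 reads, and the 3 antisense long noncoding genes inside it did not exceed 0.134 RPM. The lengths in the table are gene spans with introns, so the levels of the receptors are compared between groups and not with each other.

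The 250 bases before the transcription start of the REV-ERB genes and of Arntl are shown because E-boxes and ROREs join these genes in the loop described above. They are from RefSeq on build GRCr8, written 5′ to 3′ on the strand of the gene, with matches in capitals. Windows of 300 bases, 250 before the start and 50 from it, were searched on both strands for the E-box CACGTG, the noncanonical E-box CACGTT, the D-box TTANGTAA, the receptor hexamer AGGTCA, the RORE (AANT followed directly by that hexamer, which it therefore contains) and a wider RORE (AANT followed by AGGTNA). The sequences shown are those of Arntl on the plus strand (chr1:176766078-176766327), of Nr1d1 on the minus strand at its start at 84229454 (chr10:84229455-84229704, start A) and at its start at 84231812 (chr10:84231813-84232062, start B), and of Nr1d2 on the plus strand (chr15:9954784-9955033).
Arntl: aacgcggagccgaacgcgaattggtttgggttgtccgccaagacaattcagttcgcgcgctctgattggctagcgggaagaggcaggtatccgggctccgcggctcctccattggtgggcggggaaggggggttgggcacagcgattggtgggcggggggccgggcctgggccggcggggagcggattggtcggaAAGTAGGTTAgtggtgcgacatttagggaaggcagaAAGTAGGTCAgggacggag
Nr1d1 start A: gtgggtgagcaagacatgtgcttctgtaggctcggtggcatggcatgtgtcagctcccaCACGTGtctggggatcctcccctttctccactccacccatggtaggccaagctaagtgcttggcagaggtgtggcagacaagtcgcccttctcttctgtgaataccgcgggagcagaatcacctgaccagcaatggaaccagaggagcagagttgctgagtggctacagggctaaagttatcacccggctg
Nr1d1 start B: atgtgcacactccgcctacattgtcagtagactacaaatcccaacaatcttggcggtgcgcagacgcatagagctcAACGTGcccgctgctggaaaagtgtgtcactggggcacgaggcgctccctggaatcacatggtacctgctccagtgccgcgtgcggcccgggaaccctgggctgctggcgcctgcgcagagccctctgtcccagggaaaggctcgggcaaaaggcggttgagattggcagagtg
Nr1d2: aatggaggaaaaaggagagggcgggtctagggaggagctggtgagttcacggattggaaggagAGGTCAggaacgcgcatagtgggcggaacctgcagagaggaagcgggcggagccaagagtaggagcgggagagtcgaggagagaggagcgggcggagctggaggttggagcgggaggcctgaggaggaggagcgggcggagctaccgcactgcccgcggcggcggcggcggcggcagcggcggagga

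The window of Arntl held the RORE as AAGTAGGTCA with its first base at position -19 and AAGTAGGTTA, which matches the wider RORE, at -55. Of 33469 RefSeq promoters of this length, 0.245% held the RORE and 0.738% the wider RORE. At start A Nr1d1 held the E-box CACGTG at -191, which 6.42% of promoters held. At start B it held AACGTG at -174, the noncanonical E-box read on the other strand, which 4.83% held. Nr1d2 held the hexamer at -187, as did 16.2% of promoters somewhere in the window, and neither form of the E-box. No promoter shown held the D-box, which 2.24% held. None of the motifs was found in the windows of Rora, Rorb, Clock, Npas2 or Nfil3, which says only that these letters are not in these windows. The same holds for the E-box in the window of Nr1d2. No promoter of Cry1 was available for this search.

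Among the REV-ERB genes, Nr1d1 was lowest in TG naive rats and highest in wt crush rats. Nr1d1 was at 85.9, 103 and 126 RPM (lowest, median and highest) in TG crush and at 61.1, 72.8 and 81.7 RPM in TG naive libraries. In wt crush libraries it was at 122, 127 and 131 RPM, and in wt naive libraries at 82.7, 99.6 and 122 RPM. All 8 TG naive libraries lay below all 8 wt naive libraries, and all 6 TG crush libraries lay above all 8 TG naive libraries. The TG crush and wt crush groups overlapped, with 5 of 6 TG crush libraries below the lowest wt crush library. The means were 105 ± 15.1 RPM in TG crush (SD, n = 6), 72.1 ± 8.45 in TG naive (SD, n = 8), 127 ± 3.62 in wt crush (SD, n = 6) and 99.6 ± 13.8 in wt naive rats (SD, n = 8). The neighbours TG crush and wt naive, and wt crush and TG crush, overlapped in this order.

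Nr1d2 was also lowest in TG naive rats, but its highest group was TG crush. Nr1d2 was at 111, 118 and 131 RPM in TG crush and at 58.9, 66.9 and 72.0 RPM in TG naive libraries. In wt crush libraries it was at 103, 107 and 118 RPM, and in wt naive libraries at 75.4, 86.0 and 94.6 RPM. TG naive, wt naive and wt crush libraries formed 3 separate steps with no overlap, and only TG crush and wt crush overlapped among neighbours, with 3 of 6 TG crush libraries above the highest wt crush library. The means were 119 ± 7.02 RPM in TG crush (SD, n = 6), 66.6 ± 4.13 in TG naive (SD, n = 8), 110 ± 6.28 in wt crush (SD, n = 6) and 85.6 ± 6.41 in wt naive rats (SD, n = 8). Within groups its SD was 5.72% to 7.49% of the mean, against 2.86% to 14.4% for Nr1d1.

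**Figure D1:**
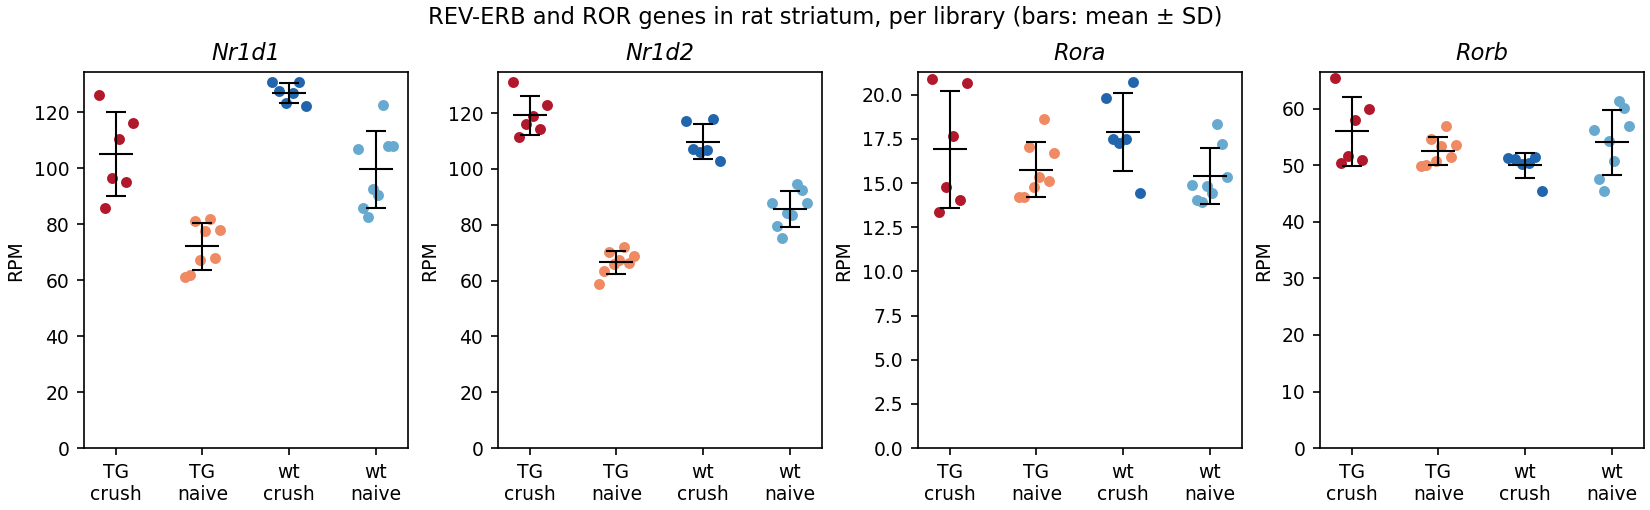
RPM of Nr1d1, Nr1d2, Rora and Rorb in each library by group, with points for libraries and bars for the mean ± SD (n = 6, 8, 6 and 8). Nr1d1 and Nr1d2 have their lowest libraries in TG naive rats, at 61.1 and 58.9 RPM, while the groups of Rora and Rorb overlap.

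Among the ROR genes, the groups overlapped in every contrast. Rora, the lowest counted of the receptors, was at 13.4, 16.2 and 20.9 RPM in TG crush, 14.2, 15.2 and 18.6 RPM in TG naive, 14.4, 17.5 and 20.7 RPM in wt crush and 13.9, 14.9 and 18.4 RPM in wt naive libraries. Its means were 16.9 ± 3.33 RPM in TG crush (SD, n = 6), 15.8 ± 1.56 in TG naive (SD, n = 8), 17.9 ± 2.21 in wt crush (SD, n = 6) and 15.4 ± 1.58 in wt naive rats (SD, n = 8). All 4 groups overlapped, so this order of means is not set apart from the spread between libraries.

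Rorb was at 50.3, 54.8 and 65.4 RPM in TG crush, 49.9, 52.4 and 57.0 RPM in TG naive, 45.4, 50.7 and 51.4 RPM in wt crush and 45.4, 55.3 and 61.3 RPM in wt naive libraries. Its means were 56.0 ± 6.10 RPM in TG crush (SD, n = 6), 52.6 ± 2.49 in TG naive (SD, n = 8), 49.96 ± 2.27 in wt crush (SD, n = 6) and 54.1 ± 5.75 in wt naive rats (SD, n = 8). As with Rora, no group stood apart from its neighbour in this order.

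In naive rats, the comparison of genotypes gave lower values of both REV-ERB genes in TG rats. The log2 change from limma was -0.46 (SE 0.08) for Nr1d1 and -0.36 (SE 0.05) for Nr1d2, or 0.727-fold and 0.780-fold, against 0.03 (SE 0.09) for Rora and -0.03 (SE 0.06) for Rorb, and the signs of both ROR genes turned with the spiny level as a covariate (-0.02 and 0.01). Of the 4 receptors 2 were called lower at an adjusted p under 0.05, where 0.0165% of the 18222 genes tested were called lower and 0.0329% in either direction. The same 2 lay below all wt naive libraries, where 0.0384% of genes did and 0.011% lay above them. Since these values chose the genes, nothing is read from the counts. Without TG naive 188, 190 or 192 or wt naive 196, 198, 200 or 202, each left out alone, Nr1d1 kept a log2 change of -0.42 to -0.45 but was not called. Without the 5 libraries with over 20 RPM of Slc17a7 it was -0.48 (SE 0.10), also not called, and Nr1d2 was -0.35 (SE 0.06) and called. Median-of-ratios rescaling and a fit of the compared groups alone also ended the call of Nr1d1.

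In crush rats, no receptor was called between genotypes, where 0.00549% of genes were, that 1 gene being the human transcript. The log2 change was -0.28 (SE 0.09) for Nr1d1, 0.12 (SE 0.06) for Nr1d2, -0.09 (SE 0.10) for Rora and 0.16 (SE 0.07) for Rorb. With the spiny level as a covariate, Rora was at 0.01 (SE 0.08) and Rorb at 0.08 (SE 0.05). The REV-ERB genes thus had opposite signs in TG crush against wt crush rats, while both were lower in TG naive than in wt naive rats. The log2 ratio of Nr1d1 to Nr1d2 RPM sets both genes against each other within a library, and it can fall without opposite signs. It averaged -0.19 ± 0.21 in TG crush (SD, n = 6; -0.41 to 0.12), 0.11 ± 0.17 in TG naive (SD, n = 8), 0.21 ± 0.05 in wt crush (SD, n = 6; 0.15 to 0.26) and 0.21 ± 0.11 in wt naive rats (SD, n = 8). Every TG crush library lay below every wt crush library in this ratio. The share of other gene pairs that do so was not computed, and these values chose the genes, so nothing is read from this.

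After nerve crush, both REV-ERB genes had higher means in each genotype. In TG rats the log2 change of crush over naive was 0.54 (SE 0.09) for Nr1d1 and 0.83 (SE 0.05) for Nr1d2, or 1.45-fold and 1.78-fold, and 0.08 (SE 0.09) for Rora and 0.08 (SE 0.06) for Rorb. Both REV-ERB genes were called higher, where 1.08% of genes were, and both stood above all TG naive libraries, where 0.22% did. The endothelial markers Cd93 and Pecam1 fell in the same contrast, and their part in these changes was not tested. The hour of sampling is not in the labels, and its part in the group differences of the receptors was not tested either. In wt rats the change was 0.36 (SE 0.09) for Nr1d1 and 0.36 (SE 0.05) for Nr1d2, or 1.28-fold for each, against 0.21 (SE 0.09) for Rora and -0.11 (SE 0.06) for Rorb. In wt rats 1 receptor, Nr1d2, was called higher, where 0.0384% of genes were, and it alone stood above all wt naive libraries, where 0.121% did. Nr1d1 was called as well without wt naive 196 (log2 change 0.38), wt naive 198 (0.40) or TG crush 223 (0.36), each left out alone. The median log2 change of the 13 spiny markers with crush was -0.04 in TG and 0.39 in wt rats, and none passed. With the spiny level as a covariate, the change in wt rats was 0.25 (SE 0.08) for Nr1d1, 0.34 (SE 0.06) for Nr1d2, which was called, 0.06 (SE 0.08) for Rora and 0.01 (SE 0.05) for Rorb.

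The difference between the crush effects, TG minus wt, was 0.48 (SE 0.07) for Nr1d2, 0.18 (SE 0.12) for Nr1d1, -0.12 (SE 0.13) for Rora and 0.19 (SE 0.09) for Rorb. Nr1d2 was called, and it was the 1 gene called of 18222, or 0.00549%. It was called in all 28 fits that left out 1 library. Without the 5 libraries with over 20 RPM of Slc17a7 the difference was 0.46 (SE 0.08) and was not called. Along with this contrast, the median log2 difference was -0.37 over the 13 spiny neuron markers and 0.94 over the 6 cortical markers, none of which passed. With the spiny level as a covariate, the difference was 0.50 (SE 0.08) for Nr1d2, which was called, 0.30 (SE 0.11) for Nr1d1, 0.04 (SE 0.11) for Rora, with its sign turned, and 0.07 (SE 0.07) for Rorb. A fit with the cortical level was not made, and its part was not tested beyond the fit without Slc17a7-rich libraries.

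**Figure D2:**
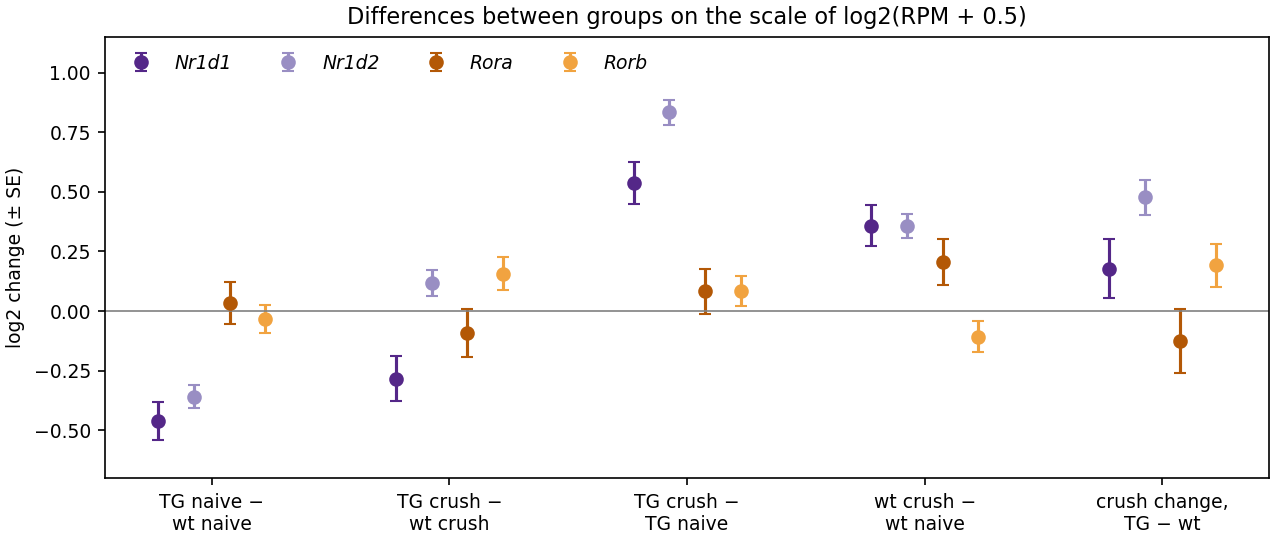
Log2 change (± SE) of Nr1d1, Nr1d2, Rora and Rorb in 5 contrasts, TG over wt, crush over naive, and the crush change in TG minus that in wt rats. Nr1d1 and Nr1d2 lie at -0.46 and -0.36 between naive genotypes and at 0.54 and 0.83 after crush in TG rats, and Rora and Rorb stay between -0.12 and 0.21.

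The clock genes known to be controlled by ROREs, where REV-ERB represses and ROR activates, were lower after crush in TG rats in 3 of 5 tested cases. Arntl, Nfil3 and Npas2 fell, Cry1 and Clock did not pass, and the median log2 change of the 5 was -0.30, against -0.01 over all genes tested. In this contrast 3.08% of genes were called, 1.08% higher and 2% lower. Arntl, which encodes the activator BMAL1, was at 15.5, 23.0 and 25.4 RPM in TG crush and at 33.7, 43.1 and 57.8 RPM in TG naive libraries. It was at 26.5, 29.9 and 32.6 RPM in wt crush and at 29.3, 33.5 and 45.8 RPM in wt naive libraries. All TG crush libraries lay below the libraries of every other group, so that Arntl stood in the reverse order to Nr1d2 across the 4 group medians. Its log2 change in TG crush over TG naive was -0.98 (SE 0.11, limma adjusted p = 3.64e-06). Over all alternatives other than single libraries left out, the limma adjusted p of Arntl was 3.43e-09 to 0.00043. In TG crush over wt crush rats, where the groups of 0.165% of genes stood apart in this direction, Arntl had -0.42 (SE 0.12, limma adjusted p = 0.51).

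Nfil3, a repressor at D-boxes, averaged 8.30 ± 1.14 RPM in TG crush (SD, n = 6) and 12.6 ± 1.88 RPM in TG naive rats (SD, n = 8), a log2 change of -0.58 (SE 0.12, limma adjusted p = 0.0102) with no overlap. Npas2, the partner of BMAL1 in the forebrain, averaged 102 ± 11.4 RPM in TG crush (SD, n = 6) and 125 ± 9.98 RPM in TG naive rats (SD, n = 8), a log2 change of -0.30 (SE 0.07, limma adjusted p = 0.023). Its adjusted p was 0.0674 in a fit of the compared groups alone. Cry1, a repressor of CLOCK and BMAL1, had a log2 change of -0.20 (SE 0.10, limma adjusted p = 0.242), and Clock one of -0.05 (SE 0.08, limma adjusted p = 0.755).

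In the other contrasts none of the 5 RORE-controlled genes passed limma's test, and none passed limma-voom. At an unadjusted p under 0.05 there were 3 of 5 between naive genotypes, 1 between crush genotypes, 3 after crush in wt rats and 4 for the difference between crush effects. Between naive genotypes all 5 log2 changes were positive, the reverse of the REV-ERB genes, with a median of 0.31 against -0.01 over all genes tested, of which 43.3% were positive. Cry1 had 0.40 (SE 0.09, limma adjusted p = 0.148), Nfil3 0.36 (SE 0.11, adjusted p = 0.705) and Arntl 0.31 (SE 0.11, adjusted p = 0.769). For the difference between crush effects all 5 were negative, with Arntl at -0.73 (SE 0.16, limma adjusted p = 0.235), and in wt rats crush gave Arntl -0.25 (SE 0.11, limma adjusted p = 0.224). With the spiny level as a covariate, Arntl in wt rats was at -0.45 with an adjusted p of 0.0409. Contrasts that share a group, such as those with TG naive rats, share its libraries. As the hour of sampling is not in the labels, its part in the group differences of the RORE-controlled genes was not tested.

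**Figure D3:**
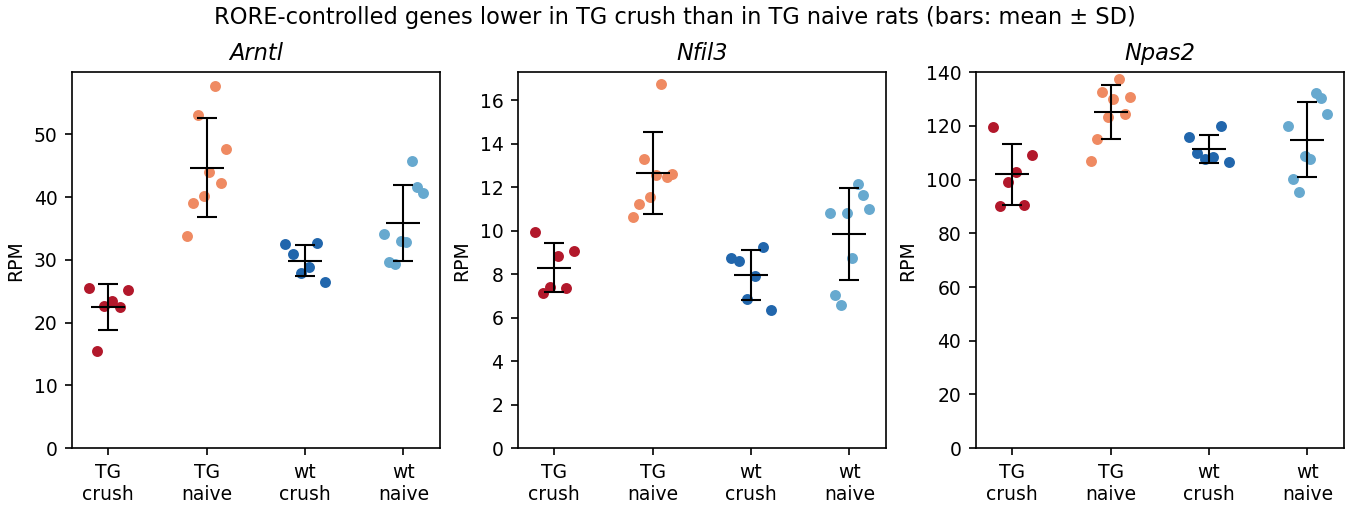
RPM of Arntl, Nfil3 and Npas2 in each library by group, with points for libraries and bars for the mean ± SD (n = 6, 8, 6 and 8). TG crush libraries lie below TG naive libraries for Arntl and Nfil3, and Arntl averages 22.4 RPM in TG crush against 44.7 RPM in TG naive rats.

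The clock genes driven by E-boxes and D-boxes, as Nr1d1 and Nr1d2 themselves are, all rose after crush in TG rats, 10 of 10 with a median log2 change of 0.55, where 1.08% of genes were called higher. The count was 7 to 10 with a library left out, lowest without TG crush 214 or 222, and 7 in the compared groups alone or without the 5 libraries rich in Slc17a7. In wt rats 4 of 10 were called higher, namely Ciart, Per2, Dbp and Bhlhe41, where 0.0384% of genes were. All 10 log2 changes were positive there, with a median of 0.38, as were 41.2% of those of all genes tested. Of the 10, 9 had an unadjusted limma p under 0.05. Per2 was at 0.60 (SE 0.13, limma adjusted p = 0.0462) and lost its call in 17 of 28 fits with a library left out, with 0.53 to 0.62 and an adjusted p of up to 0.125. These left out TG crush 214 or 219, TG naive 187, 190, 192, 193 or 194, wt crush 203, 205, 206, 209 or 210, or wt naive 195, 197, 200, 201 or 202. The count in wt rats was 9 without wt naive 196, 9 without wt naive 198 and 9 without TG crush 223, and it was 9 with array weights, 2 without the 5 libraries rich in Slc17a7 and 2 with the spiny level as a covariate. Ciart, a repressor of CLOCK and BMAL1, averaged 18.3 ± 3.89 RPM in TG crush (SD, n = 6), 4.68 ± 1.09 in TG naive (SD, n = 8), 16.1 ± 2.04 in wt crush (SD, n = 6) and 7.59 ± 1.83 in wt naive rats (SD, n = 8). Its log2 change with crush was 1.87 (SE 0.15, limma adjusted p = 4.81e-09) in TG and 1.05 (SE 0.15, adjusted p = 0.000758) in wt rats. Dbp, an activator at D-boxes, rose by 0.98 (SE 0.09, limma adjusted p = 3.88e-08) in TG and by 0.51 (SE 0.09, adjusted p = 0.00924) in wt rats. The call of Dbp in wt rats was lost without the 5 libraries rich in Slc17a7 and with the spiny level as a covariate, with an adjusted p of up to 0.113. No label gives the hour of sampling. A difference in hour between crush and naive rats can therefore not be told apart from crush for these clock genes, and was not tested.

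Per3, a period gene, rose by 0.84 (SE 0.08, limma adjusted p = 5.85e-08) in TG rats, and had 0.34 (SE 0.08, adjusted p = 0.0526) in wt rats. It passed in wt rats without wt naive 196 or 198, TG naive 187 or TG crush 223, each left out alone. It also passed there with the filter of 2 RPM in 14 libraries, median-of-ratios rescaling, the compared groups alone and array weights. Over all alternatives other than single libraries left out, its log2 change was 0.32 to 0.39 and its limma adjusted p 0.00514 to 0.128. Bhlhe41, the repressor DEC2, rose by 0.56 (SE 0.06, limma adjusted p = 1.36e-07) in TG and by 0.34 (SE 0.06, adjusted p = 0.00321) in wt rats. Between naive genotypes none of the 10 passed limma or limma-voom and 5 had an unadjusted p under 0.05, while all 10 log2 changes were negative with a median of -0.16. Dbp came closest at -0.42 (SE 0.08, limma adjusted p = 0.062), and it passed without wt naive 201, TG naive 191 or TG naive 193, each left out alone. It also passed with the spiny level as a covariate (limma adjusted p = 0.00719), the only other alternative in which it did. Ciart had a log2 change of -0.65 and was not called. All 8 of its TG naive libraries lay below all 8 wt naive libraries, as for Nr1d1 and Nr1d2, where 0.0384% of genes did. For Dbp 6 of 8 lay below them. Per3 passed without TG naive 187. Between crush genotypes and for the difference between crush effects none of the 10 passed limma or limma-voom, with 1 and 5 at an unadjusted p under 0.05. Without TG naive 187 Per3 passed for the difference between crush effects, where its value was 0.49 (SE 0.11, limma adjusted p = 0.272) with all libraries.

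**Figure D4:**
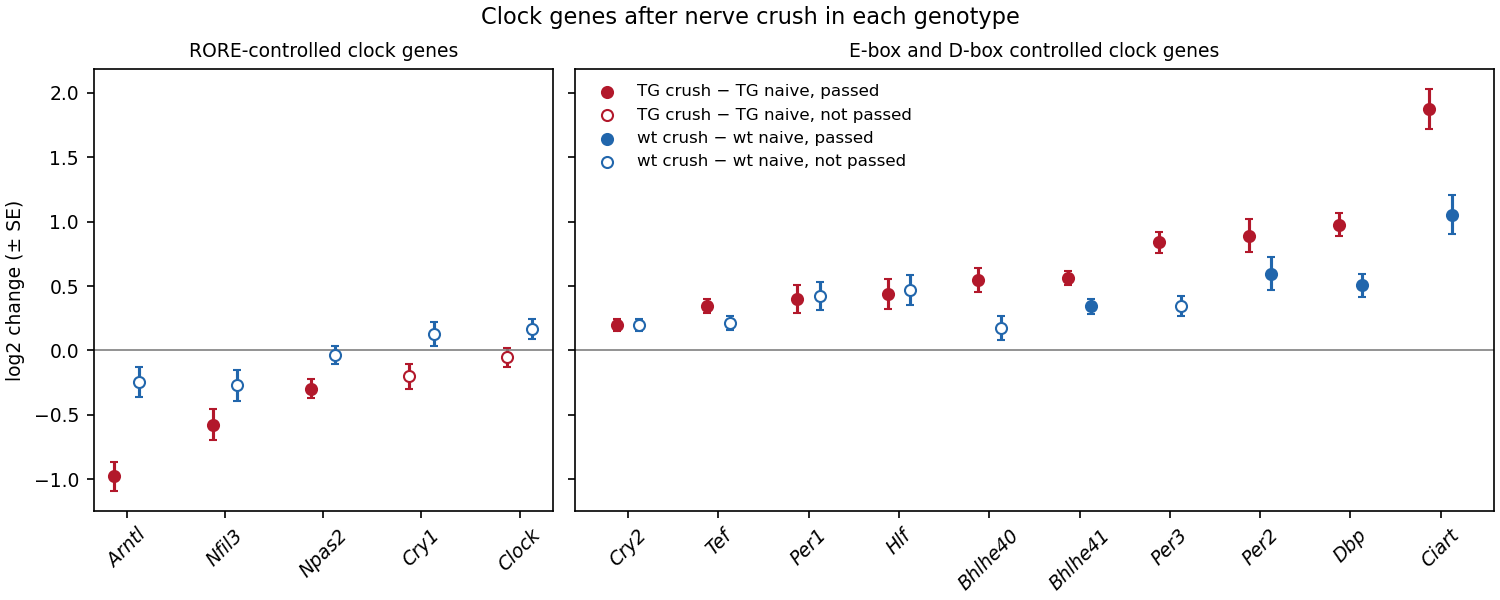
Log2 change with crush (± SE) in TG and wt rats for 5 RORE-controlled clock genes and 10 clock genes driven by E-boxes or D-boxes, with filled points for genes at a limma adjusted p under 0.05. In TG rats 3 of 5 RORE-controlled genes are filled and negative and 10 of 10 E-box and D-box genes are filled and positive, against 0 and 4 in wt rats.

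Outside the clock, few genes linked to the receptors passed limma's test. Of 7 tested genes reported under REV-ERB control in mouse, Cdkn1a, which encodes the cell cycle inhibitor p21, fell after crush in TG rats, 1 of 7 where 2% of all genes were called lower. It averaged 6.61 ± 1.51 RPM in TG crush (SD, n = 6) and 15.8 ± 3.34 RPM in TG naive rats (SD, n = 8), a log2 change of -1.20 (SE 0.18, limma adjusted p = 0.000186). In wt rats crush gave -0.61 (SE 0.18, limma adjusted p = 0.115), which passed without wt naive 202 and with array weights. In the other contrasts none of the 7 passed limma or limma-voom, with 1, 0, 3 and 1 at an unadjusted p under 0.05 between naive genotypes, between crush genotypes, after crush in wt rats and for the difference between crush effects. One more passed after crush in TG rats without TG crush 223, and 1 passed after crush in wt rats without wt naive 196 or 198. Array weights gave 2 of 7 after crush in TG and 3 of 7 in wt rats, and the spiny covariate gave 2 of 7 in TG rats.

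None of the 15 corepressors and coactivators, among them Ncor1 and Hdac3, passed the limma fit of all libraries or limma-voom in any contrast, with 0 to 4 at an unadjusted p under 0.05. The same held for 7 genes that act in turnover of REV-ERB protein, such as Gsk3b and Fbxw7 (0 or 1), for 12 genes of heme synthesis and breakdown, heme being the REV-ERB ligand (0 to 3), and for 5 genes that depend on RORA in mouse Purkinje cells (0 or 1). Without TG crush 223 there was 1 passing cofactor after crush in TG rats, and without wt naive 196 there was 1 heme gene and 1 Purkinje gene after crush in wt rats. With array weights 2 cofactors passed after crush in TG rats, and 1 cofactor, 1 heme gene and 1 Purkinje gene after crush in wt rats. Of 30 other nuclear receptors, 2 fell after crush in TG rats, where 2% of all genes were called lower. None passed in the other contrasts, where 3 to 9 had an unadjusted p under 0.05 and limma-voom passed none. After crush in TG rats the count was 5 with array weights (1 higher and 4 lower), 4 with the spiny covariate and 1 in the compared groups alone, and in wt rats it was 3 with array weights. Rarg, a retinoic acid receptor, had a log2 change of -0.36 (SE 0.08, limma adjusted p = 0.0122). Nr1h2, the liver X receptor β, had -0.28 (SE 0.06, limma adjusted p = 0.00804), with 0.0541 in a fit of the compared groups alone.

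Within groups, the ROR genes varied with the level of the spiny neuron markers, and in opposite directions. The deviations of each library from its group mean on the scale of log2(RPM + 0.5) were compared over 28 libraries for 22 pairs, with a two-sided permutation test of 100000 permutations within groups and Benjamini-Hochberg adjustment over the 22. For Rora and the mean log2 level of the 13 spiny markers, Pearson's r was 0.66 (p = 9e-05, adjusted p = 0.00066) and Spearman's rho was 0.67 (p = 0.0003, adjusted p = 0.0033). For Rorb, r was -0.76 (p = 9e-05, adjusted p = 0.00066) and rho was -0.70 (p = 0.00077, adjusted p = 0.00565). Without TG crush 223 and wt naive 199, the libraries farthest from the median spiny level, r was 0.59 for Rora and -0.67 for Rorb. Nr1d1 against the spiny level had r of 0.52 (permutation p = 0.0198, adjusted p = 0.0585), which passed without TG naive 187 (0.59), TG naive 188 (0.60) or wt naive 195 (0.65) and with median-of-ratios rescaling (0.61), and Nr1d2 had r of 0.15 (permutation adjusted p = 0.574).

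By group, r between Rora and the spiny level was 0.81 in TG crush, 0.70 in TG naive, 0.46 in wt crush and 0.73 in wt naive libraries. For Rorb it was -0.87 in TG crush, -0.53 in TG naive, 0.26 in wt crush and -0.87 in wt naive libraries. The sign for Rorb thus did not hold in wt crush rats, the group in which the spiny level varied least, with an SD of 0.08 log2 units against 0.36 in TG crush, 0.26 in TG naive and 0.41 in wt naive. The library TG crush 223 had the lowest spiny level of its group (8.07 as mean log2), the lowest Rora (13.4 RPM) and the highest Rorb (65.4 RPM). Rora and Rorb against each other had r of -0.44 (permutation adjusted p = 0.101) and rho of -0.36 (permutation adjusted p = 0.205). Without wt crush 207, the library of lowest Rorb in its group, that r was -0.59 (permutation adjusted p = 0.0224). Rorb against Slc17a7 had r of 0.43 (permutation adjusted p = 0.101), and 0.53 without TG crush 223 (permutation adjusted p = 0.0455).

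**Figure D5:**
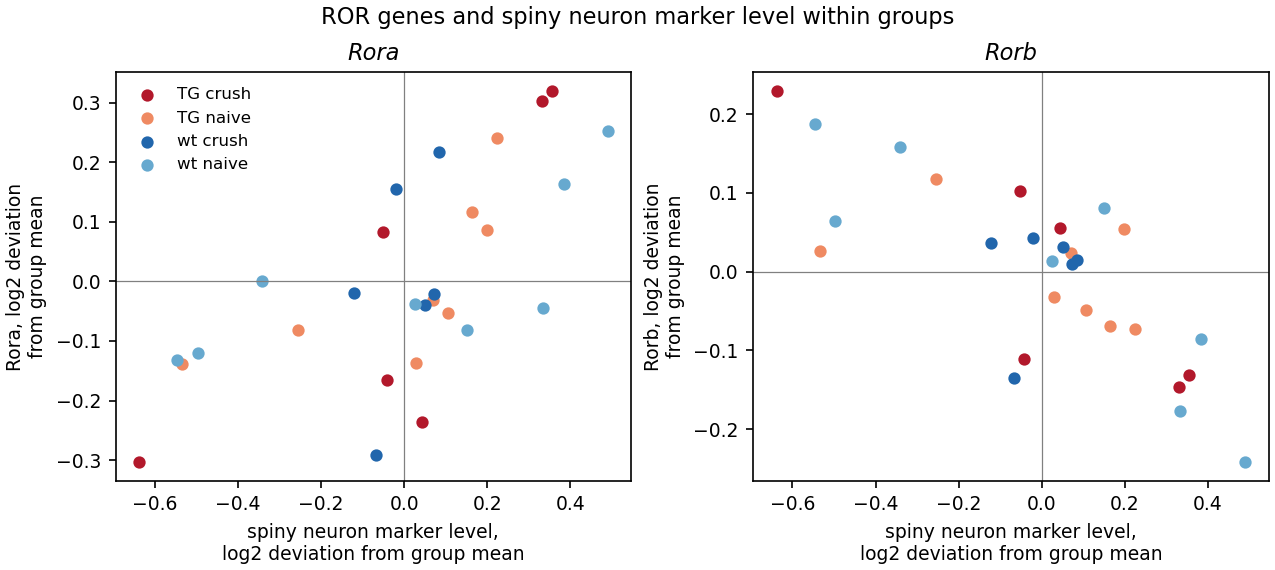
Deviation of Rora and Rorb from the group mean (log2) against that of the mean level of 13 spiny neuron markers (log2), with 1 point per library coloured by group. Rora rises with the spiny level (r = 0.66) and Rorb falls with it (r = -0.76) over 28 libraries, while the 6 wt crush points span little of the axis.

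Nr1d1 varied within groups with Dbp, with r of 0.77 (p = 4e-05, adjusted p = 0.00066), rho of 0.77 (p = 0.00021, adjusted p = 0.0033) and r of 0.70 without TG naive 188 and wt naive 198 (permutation test). By group, r was 0.92 in TG crush, 0.62 in TG naive, 0.40 in wt crush and 0.89 in wt naive libraries. Nr1d2 against Dbp had r of 0.47 (p = 0.0213, adjusted p = 0.0585) and rho of 0.46 (p = 0.0209, adjusted p = 0.0627) by the permutation test, and r passed without TG crush 220 (0.50), TG crush 226 (0.52) or TG naive 188 (0.52) and with median-of-ratios rescaling (0.59). Whether the relation with Dbp differs between the REV-ERB genes was not tested. Nr1d1 against Nr1d2 had r of 0.49 (p = 0.0159, adjusted p = 0.0582) and rho of 0.53 (p = 0.00819, adjusted p = 0.03) by the permutation test, so only the rank measure passed. The r passed at 0.51 to 0.61 without TG crush 214, 220 or 226 or TG naive 188 or 189, each left out alone. By group this r was 0.18 in TG crush, 0.24 in TG naive, 0.85 in wt crush and 0.88 in wt naive libraries. Whether it differs between genotypes was not tested. Neither REV-ERB gene passed within groups with Arntl, with r of 0.10 for Nr1d1 (permutation adjusted p = 0.688) and -0.13 for Nr1d2 (permutation adjusted p = 0.595). The opposite order of Nr1d2 and Arntl across groups was thus not detected among libraries of 1 group.

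The ROR genes did vary with Arntl within groups. For Rora r was 0.57 (p = 0.00103, adjusted p = 0.00453) and rho was 0.51 (p = 0.00582, adjusted p = 0.0256), with r of 0.46 without TG crush 223 and TG naive 192 (permutation test). For Rorb r was -0.65 (p = 0.00044, adjusted p = 0.00242) and rho was -0.59 (p = 0.00225, adjusted p = 0.0124), with r of -0.61 without the same libraries (permutation test). By group r with Arntl was 0.46, 0.90, 0.07 and 0.79 for Rora and -0.65, -0.58, -0.54 and -0.80 for Rorb in TG crush, TG naive, wt crush and wt naive libraries. The spiny level moves with both ROR genes in these libraries, and its part in the relation to Arntl was not tested.

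The genes most like each receptor within groups were sought by the same Pearson's r among 11069 genes with a mean of at least 5 RPM, as a description without a test, over libraries that share their depth and tissue. For Nr1d1 they were Dbp (0.77), Flywch2 (0.76) and Mrps16 (0.75), a mitochondrial ribosomal protein gene, and the least like were Cutc (-0.74) and Nfatc3 (-0.70). For Nr1d2 they were Bhlhe41 (0.68), the BMP receptor gene Bmpr2 (0.68) and Rbbp6 (0.67), and the least like were Nrros (-0.70) and Aox1 (-0.68). The gene ranked first for each REV-ERB gene was a clock gene of the fixed list of 10, by a narrow margin. Dbp was at 0.7664 against 0.7644 for Flywch2, and Bhlhe41 at 0.6805 against 0.678 for Bmpr2. The stability of these ranks was not tested, and nothing is read from them. For Rora they were Plppr5 (0.84), Cpne8 (0.83) and the kinase gene Gsk3b (0.82), and the least like were Mmp15 (-0.81) and Vasp (-0.80). For Rorb they were the adenylate kinase gene Ak4 (0.87), Anp32e (0.83) and Rap1b (0.82), and the least like were Fam222a (-0.84) and Gpr12 (-0.81).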

How the data were processed

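RNA from 28 striatal libraries was made into stranded mRNA libraries and read single-end over 75 nt in 2 runs, per the labels' protocols, which do not assign libraries to runs. STAR 2.6.1a, featureCounts, Subread 1.6.3, DESeq2 1.22.2 and the build Rnor_6.0 are named, per the submitters' processing notes. For strand, the counting mode was not given in the sources used here. All deposited values are RPKM with decimal commas, which is why their unit was recorded as other, a number in the file's own notation. The length behind the authors' RPKM equalled the gene span, introns included, for every gene. Multiplying by length and dividing by 1000 gave RPM, and whole reads were recovered for 100% of values within 0.02 of a whole number.

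The labels name each library by its own number and say nothing more of separate animals, which means that p-values reflect library-to-library spread. The model was fitted with limma 3.58.1 under R 4.3.3 to log2(RPM + 0.5) of all 28 libraries, with a variance trend and 1 term per group. Fold changes on this scale understate changes of low genes. The filter of 0.5 RPM in at least 6 libraries left 18222 genes, and calls were made at a Benjamini-Hochberg adjusted p under 0.05 over all of them. On simulated counts for TG naive against wt naive (18054 genes), the fit found 26% of the genes set to change 1.2-fold and 96% at 1.5-fold, and 6 of its 167 calls were false. For TG crush against TG naive (18045 genes) it found 16% and 94%, and 8 of 163 calls were false. The simulation gave every gene the same spread beyond counting error and drew counts independently, without differences in tissue composition shared by the genes of a library. These rates therefore need not hold for the real libraries. Permutation tests used scipy 1.17.1 and pandas 2.3.3 in Python 3.11.15, and figures matplotlib 3.10.9.

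The receptors and the gene lists were chosen with earlier results of these data known. Named genes are every receptor, every RORE-controlled clock gene, up to 4 called genes of lowest p from each other list, human TOR1A, genes that overlap a receptor, and for each receptor the 3 genes most and 2 least like it within groups. Per2, the passing endothelial markers and genes named as examples of a list were chosen after their values were seen. Not every gene that this rule names is reported here. Of the turnover list, 7 of 8 genes were found by symbol. Alternatives were pseudocounts of 0.1 and 2 RPM, no filter, 2 RPM in 14 libraries, RPKM with a minimum of 0.5, quantile normalization, median-of-ratios rescaling, the compared groups alone, array weights and leaving out each library. Chosen after seeing the data were limma-voom on whole reads, leaving out 5 libraries rich in Slc17a7 and the spiny marker level as a covariate.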

Additional observations from a re-analysis of the deposited data

Results flagged for a closer look

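Among 36 groups of libraries looked at (4 groups for each of 9 genes), 4 held a library far from the others of its group, where chance gives about 1 in 20 groups. Rorb was at 45.4 RPM in wt crush 207, with a gap to the next library of 0.801 of the group's range. Arntl was at 15.5 RPM in TG crush 223, with a gap of 0.705 of the range. Clock was at 81.6 RPM in wt naive 196, with a gap of 0.542, and Nfil3 at 16.8 RPM in TG naive 187, with a gap of 0.564. The crush effect on Nr1d2 was called as different between genotypes, with a log2 difference of 0.48 for TG minus wt rats. Nr1d2 was chosen with these values known, and without the 5 libraries rich in Slc17a7 the difference was 0.46 (SE 0.08) and was not called.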

How the results depend on the processing

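No paired analysis was possible because no library number is shared between groups. The log2 changes of Nr1d1, Nr1d2, Rora and Rorb moved by less than 1 SD between libraries in all fits but 1, the difference between crush effects for Rorb, at 0.0697 with the spiny level as a covariate against 0.19. That SD is wider than the SE of a group difference, and small values of Rora and Rorb turned their sign within it under the same covariate: Rora between naive genotypes (-0.02), between crush genotypes (0.01) and for the difference between crush effects (0.04), and Rorb between naive genotypes (0.01) and after crush in wt rats (0.01). Rora and Rorb fell under the minimum on the RPKM scale, where 11374 genes were tested. Between naive genotypes the number of receptors called was 1 with median-of-ratios rescaling, in the compared groups alone and without Slc17a7-rich libraries, against 2, and 1 to 2 with a library left out. The number of genes called there was 2 in the compared groups alone and 2 without Slc17a7-rich libraries, against 6, and 2 to 7 with a library left out. Between crush genotypes it was 2 with a pseudocount of 0.1 RPM, 2 on the RPKM scale, 2 with quantile normalization, 6 in the compared groups alone, 4 with array weights, 2 with limma-voom and 2 without Slc17a7-rich libraries, against 1, and 1 to 6 with a library left out. After crush in wt rats it was 19 with no filter, 50 with the stricter filter, 45 in the compared groups alone, 1436 with array weights (2 receptors), 15 without Slc17a7-rich libraries and 10 with the spiny covariate, against 29, and it ran from 12 without wt naive 197 to 511 without wt naive 196 (1 to 2 receptors). After crush in TG rats it was 371 with no filter, 123 in the compared groups alone, 1753 with array weights, 181 without Slc17a7-rich libraries and 1331 with the spiny covariate, against 562, and it ran from 224 without TG crush 220 to 1218 without TG crush 223. For the difference between crush effects it was 2 with array weights and 0 without Slc17a7-rich libraries (0 receptors), against 1, and 1 to 5 with a library left out. The share of calls that were higher was 47.2% with median-of-ratios rescaling and 48.6% with quantile normalization after crush in TG rats, against 35.1%, and 38.7% and 40.7% in wt rats, against 24.1%. The within-group r of Nr1d2 with Rorb, near 0 at -0.01, was 0.045 with median-of-ratios rescaling and -0.17 to 0.078 with a library left out, and that of Nr1d1 with Arntl, at 0.10, was -0.10 to 0.24, lowest without TG crush 223. The r of Nr1d1 with Nr1d2 passed with median-of-ratios rescaling (0.59), as did those of Nr1d2 with Dbp (0.59) and of Nr1d1 with the spiny level (0.61). The causes were not tested.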
